A study of Brassica napus with 14 samples.

Results

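Type I MADS-box genes were followed through seed development in Brassica napus, the allotetraploid oilseed rape, which carries an A and a C subgenome. They were chosen by Arabidopsis locus. Each gene of the deposited table that is paired with AGL62 (AT5G60440), PHE1 (AT1G65330), PHE2 (AT1G65300), AGL36 (AT5G26650), AGL90 (AT5G27960), AGL28 (AT1G01530), AGL40 (AT4G36590), AGL61 (AT2G24840), AGL80 (AT5G48670) or AGL23 (AT1G65360) was taken, which gave 46 of the 96219 genes. Of the 10 loci, 7 had at least 1 gene in the table, and no gene is paired with AGL90, AGL28 or AGL23. The symbols were attached to the loci from Arabidopsis nomenclature, since the table gives loci only.

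All libraries came from polyadenylated RNA of the cultivar DH12075, with no mutant, transgene or chemical treatment named, from plants kept in growth chambers at long days and pollinated by hand. Stage OV is the whole ovule at day 0 (3 libraries). Whole seeds were taken at day 7 (GLOB, 3 libraries), day 10 (HEART, 3 libraries), day 28 (MG, 3 libraries) and day 35 (DS, 2 libraries). The authors' table holds 1 FPKM value per gene and stage (fragments mapped to a transcript, scaled by its length and by the mapped fragments of the library), so no value below has a replicate error, and no difference could be set against the spread between libraries.

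Type I MADS proteins are transcription factors that fall into the Mα, Mβ and Mγ clades, and Mα proteins commonly pair with Mγ proteins to bind DNA. In Arabidopsis many of their genes are active in the central cell of the embryo sac and in the young endosperm, the tissue that grows from the fertilized central cell and feeds the embryo. AGL62 (Mα) keeps the Arabidopsis endosperm in its syncytial phase, and its loss leads to early formation of cell walls. PHE1 (Mγ) is expressed from the paternal allele and AGL36 (Mγ) from the maternal one. AGL61 (Mα, also called DIANA) and AGL80 (Mγ) are partners in the central cell.

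The 46 copies were low throughout. At the limit of 1 FPKM, 5 copies were detected in any stage, or 10.9%, against 51.4% of all genes. Those 5 were 2 copies paired with AGL62, 2 paired with AGL80 and 1 paired with PHE1. By stage, 0 copies reached the limit at OV (39.9% of all genes), 0 at GLOB (39.2%), 3 at HEART (41.1%), 3 at MG (37.4%) and 0 at DS (35.6%). The highest value of any copy was 5.30 FPKM. A further 24 copies lay above 0 but below 1 FPKM, and 17 were listed at 0 in all 5 stages, which is 37.0% of the copies, against 25.9% of all genes. The copies at 0 throughout were 11 of the 24 paired with AGL62, 4 of the 6 paired with AGL61 and 2 of the 6 paired with AGL80. An exact 0 in an FPKM table can be a failed estimate, and these genes are therefore described as listed at 0.

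Most copies with a value had it in young seeds, while the summed FPKM, as deposited, was largest in mature green seed. As deposited, the 46 copies together had 1.81 FPKM at OV, 4.49 at GLOB, 7.21 at HEART, 12.1 at MG and 0.192 at DS. Nearly all of the MG amount came from 3 copies, BnaN04g23250, BnaN19g29100 and BnaN09g23370. The order of HEART and MG depends on the scale, since all genes together had 593838 FPKM at HEART and 1.51154e+06 at MG. Rescaled to a common sum, AGL62, PHE1 and AGL80 had 6.86, 2.73 and 0.131 at HEART, against 2.91, 0 and 3.66 at MG. At OV, 8 of 46 copies were listed above 0, at GLOB 22, at HEART 14, at MG 5 and at DS 1. Among all genes the share above 0 was nearly level, at 62.4% at OV, 61.7% at GLOB, 63.9% at HEART, 57.5% at MG and 55% at DS. Of the 46 copies, 29 were above 0 in some stage (74.1% of all genes were). Of these 29, 18 had their highest value at GLOB, 4 at HEART, 4 at MG, 2 at OV and 1 at DS. For all genes above 0 in some stage, GLOB held the highest value of 16.9%, HEART of 17.7%, MG of 18.9%, OV of 20.9% and DS of 25.7%. The most frequent patterns were values at GLOB alone (9 copies) and at GLOB and HEART alone (9 copies).

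**Figure D1:**
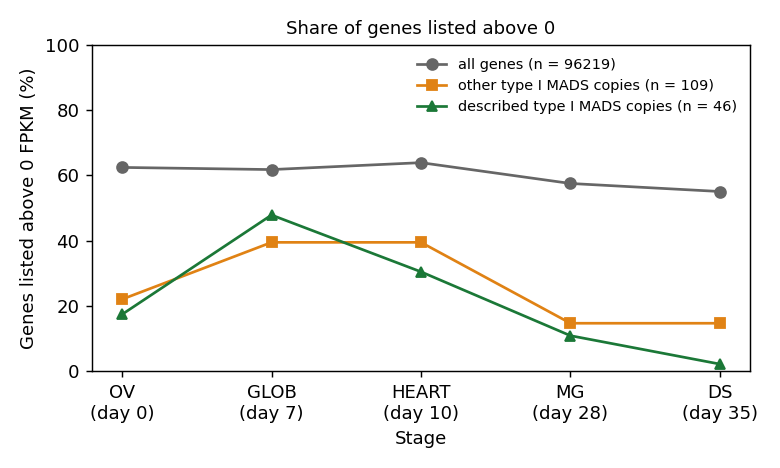
Share of genes listed above 0 FPKM (y axis, percent) at each stage (x axis) for the 46 described type I MADS copies (triangles), 109 copies of other type I MADS loci (squares) and all 96219 genes (circles), 1 value per stage. The described copies go from 17.4% at OV to 47.8% at GLOB and 2.17% at DS, while all genes stay between 55% and 63.9%.

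Because most genes are higher than these, the 24 copies above 0 in some stage but below 1 FPKM in all were also set beside the 21858 genes of the table with that property. The levels were not matched, since the median of the highest value was 0.0992 FPKM for the copies and 0.185 for those genes. At GLOB, 20 of the 24 were above 0 (83.3%, against 54.8% of the low genes). At HEART it was 10 (41.7%, against 62.4%), at OV 5 (20.8%, against 59.9%), at MG 2 (8.33%, against 40.5%) and at DS 1 (4.17%, against 37.9%). The 24 were kept because of the stages in which they have a value, so these shares only describe them. Of all 41 copies below 1 FPKM in every stage, 48.8% were above 0 at GLOB, against 25.6% of 46802 such genes. At HEART it was 24.4% against 29.2%, and at OV 12.2% against 28.0%. At MG it was 4.88% against 18.9%, and at DS 2.44% against 17.7%. How small a value a stage could hold differed too. The first percentile of the values above 0 was 0.00901 FPKM at OV, 0.0119 at GLOB, 0.0126 at HEART, 0.0246 at MG and 0.0169 at DS, and the part of this in the counts was not tested.

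AGL62 had 24 copies, 12 on A, 11 on C and 1 not placed on a chromosome. Summed over them, the FPKM was 1.53 at OV, 2.73 at GLOB, 4.96 at HEART, 5.36 at MG and 0 at DS. With the stages rescaled to a common sum HEART exceeded MG, with 6.86 against 2.91. The copies differed from one another. BnaN04g23250 (chromosome 4) had 0.697 FPKM at OV, 0 at GLOB, 2.70 at HEART, 5.30 at MG and 0 at DS, and so made up nearly all of the MG sum. On the log2(FPKM + 1) scale it was 1.89 higher at HEART than at GLOB and the difference between MG and DS was -2.65.

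**Figure D2:**
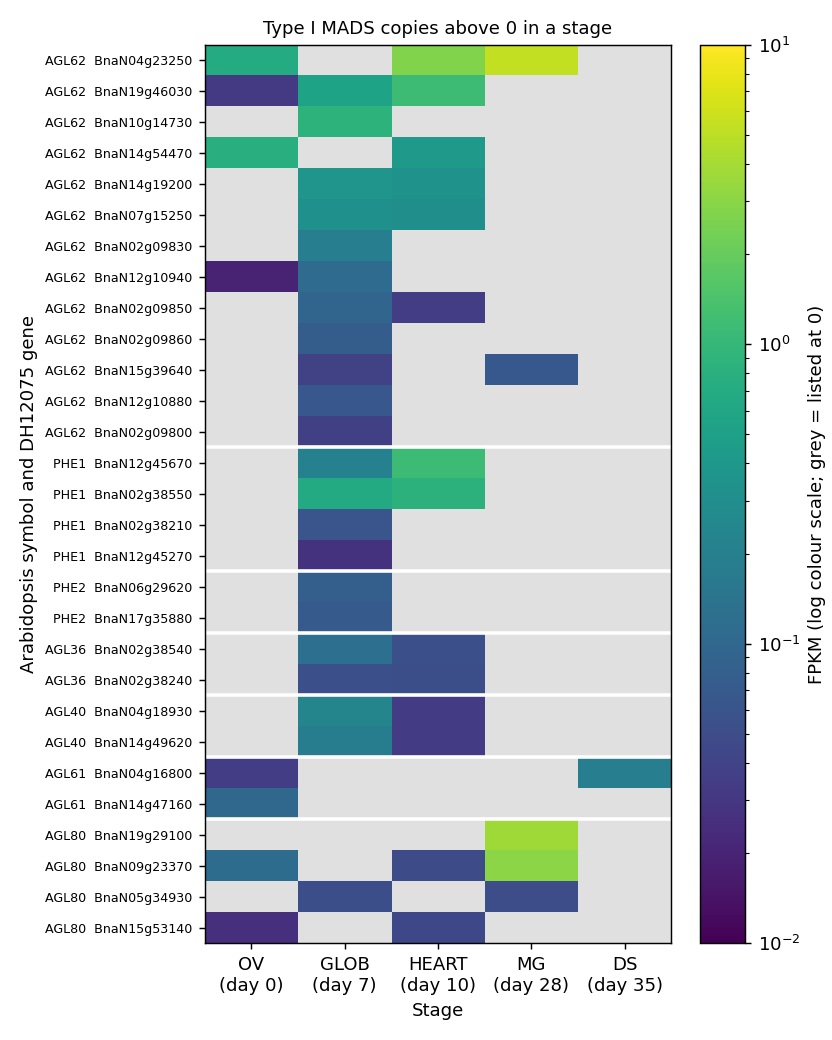
FPKM (colour, log scale from 0.01 to 10, grey where listed at 0) of the 29 copies above 0 in some stage (rows, grouped by Arabidopsis symbol) at the 5 stages (columns). The GLOB column is filled for 22 of the rows, MG for 5 and DS for 1, and the brightest cells are BnaN04g23250 at MG (5.30) and BnaN19g29100 at MG (3.71).

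The other AGL62 copy above 1 FPKM, BnaN19g46030 (chromosome 19), followed another course, with 0.0323 FPKM at OV, 0.556 at GLOB, 1.15 at HEART and 0 at MG and DS. BnaN10g14730 (chromosome 10) had 0.873 FPKM at GLOB and was listed at 0 elsewhere. BnaN14g54470 (chromosome 14) had 0.780 at OV and 0.423 at HEART, and 0 in the other stages. Values at GLOB and HEART alone were held by BnaN14g19200, at 0.362 and 0.342 FPKM, and by BnaN07g15250, at 0.316 and 0.312. None of these 4 copies reached 1 FPKM.

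The AGL62 copies were divided by the order of genes along the chromosomes, read from their DH12075 identifiers. This split was chosen after the values were seen, but uses position only. Of the 24 copies, 14 stand within 5 genes of a gene paired with another Arabidopsis locus at most 50 loci from AGL62 itself, such as AT5G60450 or AT5G60410, and 10 do not. Of those 10, 1 is the unplaced copy. Over all placed genes with a locus, 76.0% have such a neighbour, against 60.9% of the 23 placed AGL62 copies. The 14 copies beside AGL62's Arabidopsis neighbours summed to 0.0517 FPKM at OV, 2.01 at GLOB, 1.18 at HEART, 0 at MG and 0 at DS. The other 10 summed to 1.48 at OV, 0.717 at GLOB, 3.78 at HEART, 5.36 at MG and 0 at DS. The whole AGL62 value of MG therefore came from copies that lie elsewhere in the genome. Nearly all of it, and 2.70 of the 3.78 FPKM at HEART, came from 1 copy, BnaN04g23250. BnaN14g19200 and BnaN07g15250, also among the 10, had values at GLOB and HEART alone. Of the 14 copies 8 were above 0 in some stage, and of the 10 it was 5. The split therefore does not sort the copies by their course. How the table's authors paired genes with Arabidopsis loci is not stated.

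**Figure D3:**
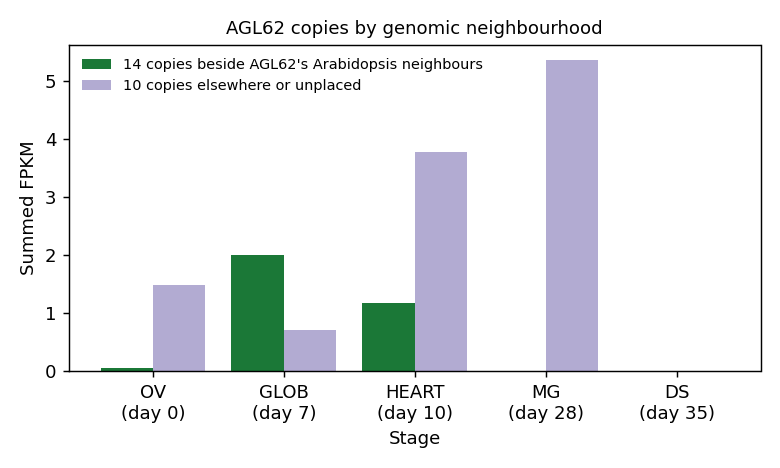
Summed FPKM (y axis) by stage (x axis) of the 14 AGL62 copies that lie beside Arabidopsis neighbours of AGL62 (green) and of the 10 that lie elsewhere or are unplaced (violet). The green bars are highest at GLOB (2.01) and absent at MG and DS, and the violet ones are highest at MG (5.36). Of that MG value, 5.30 is from 1 copy, BnaN04g23250.

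Of the 14 copies in the AGL62 neighbourhood, 12 form a run of near neighbours on chromosome 2 (6 copies) and another on chromosome 12 (6 copies). They carry 5 different Darmor identifiers between them, but their sequences were not compared. Reads that fit more than 1 copy, if there are any, may have been divided between them, which was not tested. At GLOB 6 of the 12 were above 0, the highest at 0.192 FPKM and all together at 0.581. At OV 1 was above 0 (0.0194 FPKM) and at HEART 1 (0.0347), and at MG and DS all 12 were listed at 0. The BnaN10g14730 and BnaN19g46030 copies, on chromosomes 10 and 19, are the other members of this neighbourhood and held most of its FPKM at GLOB and HEART.

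PHE1 had 4 copies and PHE2, its close Arabidopsis duplicate, had 2. All 6 were above 0 at GLOB, and all 6 were listed at 0 for OV, MG and DS. Summed PHE1 was 0.972 FPKM at GLOB and 1.98 at HEART. Its strongest copies were BnaN12g45670 (chromosome 12), with 0.207 at GLOB and 1.13 at HEART, and BnaN02g38550 (chromosome 2), with 0.675 at GLOB and 0.847 at HEART. The remaining PHE1 copies, BnaN02g38210 and BnaN12g45270, had 0.0619 and 0.0277 FPKM at GLOB and were listed at 0 elsewhere. The PHE2 copies had 0.0806 FPKM (BnaN06g29620) and 0.0709 FPKM (BnaN17g35880) at GLOB alone.

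AGL36 had 2 copies, both on A, with values at GLOB and HEART alone. BnaN02g38540 had 0.126 FPKM at GLOB and 0.0539 at HEART, and BnaN02g38240 had 0.0536 and 0.0532. BnaN02g38540 lies directly beside the PHE1 copy BnaN02g38550. None of the PHE1 or PHE2 copies has a near neighbour paired with a locus close to PHE1 or PHE2. Instead, all 6 are adjacent to a gene paired with a locus at most 100 loci from AGL36, among them AT5G26000 and AT5G25980, which encode myrosinases in Arabidopsis. The division of these copies between PHE1, PHE2 and AGL36 is therefore the table's, and does not follow position.

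AGL40 (Mα) had 1 copy on A and 1 on C, and their values were nearly the same. BnaN04g18930 had 0.229 FPKM at GLOB and 0.0345 at HEART, and BnaN14g49620 had 0.181 and 0.0343, with 0 at OV, MG and DS. The copies share a Darmor identifier, but their sequences were not compared. Reads that fit both copies, if there are any, may have been divided between them, which was not tested.

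The central cell genes were near 0 in the ovule. AGL61 summed to 0.138 FPKM at OV over 2 copies, BnaN14g47160 at 0.103 and BnaN04g16800 at 0.0346, and was listed at 0 for GLOB, HEART and MG. BnaN04g16800 was also the only one of the 46 copies above 0 at DS, at 0.192 FPKM. AGL80 summed to 0.141 FPKM at OV, 0.0524 at GLOB, 0.0945 at HEART, 6.73 at MG and 0 at DS. Its MG value came from BnaN19g29100 (chromosome 19), with 3.71 FPKM at MG and 0 in the other 4 stages, and BnaN09g23370 (chromosome 9), with 0.115 at OV, 0.0501 at HEART, 2.97 at MG and 0 at GLOB and DS. Between HEART and MG these were 2.23 and 1.92 higher on the log2(FPKM + 1) scale. None of the 6 AGL80 copies lies beside Arabidopsis neighbours of AGL80. BnaN05g34930 and BnaN15g53140, both with at most 0.0524 FPKM, stand beside a gene paired with AGL45, another Mγ gene.

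Whole ovules hold few gametophyte cells, and in such bulk samples fewer cells of a type and less RNA per cell cannot be told apart. Markers of the egg apparatus, the egg and synergid cells next to the central cell, were low at OV. Over 6 loci (the egg cell genes EC1.1 to EC1.5 and the synergid regulator MYB98) they summed to 2.47 FPKM at OV, and EC1.5 and MYB98 were listed at 0. The same list summed to 5.73 at GLOB, 8.60 at HEART, 1.53 at MG and 4.05 at DS, so it was not highest in the ovule. It therefore gives no measure of the gametophyte cells in the OV sample. In sum, seed coat markers were far higher than the type I genes. The 8 loci, among them BAN, TT12 and TT16, summed to 571 FPKM at OV, 1268 at GLOB, 792 at HEART, 177 at MG and 1.41 at DS. Before DS 0 of them were listed at 0, and at DS 3 were. Most of the OV sum came from TT16 (378 FPKM) and STK (187), and STK had 801 of the GLOB sum. At OV, TT1 had 4.67 FPKM, and BAN, TT12, TT10, TT2 and AHA10 had at most 0.707 each. TT10 was highest at MG (17.3). The 7 embryo loci summed to 0.0628 at OV, 1.52 at GLOB, 67.7 at HEART, 5.78 at MG and 11.5 at DS, and 5 of them were listed at 0 for OV. LEC1 alone made up 65.7 of the HEART sum. Without it the other 6 summed to 0.0628, 0.846, 1.97, 5.29 and 11.5 FPKM from OV to DS. The seed coat sum was lowest at DS, where 45 of the 46 type I copies were listed at 0. The part of tissue proportions in the type I values was not tested.

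A difference between stages of at least 1 on the log2(FPKM + 1) scale is 2-fold in FPKM + 1, and so more than 2-fold in FPKM. Such differences were counted over the 49417 genes with 1 FPKM or more in some stage, of which 5 belong here. Higher and lower refer to the later stage. Such genes pass through the stage in which they are high, so these counts only describe them. Between OV and GLOB 0 of the 5 were higher (15.8% of all genes considered) and 0 lower (11%). Between GLOB and HEART 1 was higher (4.89%), BnaN04g23250, and 0 lower (2.5%). Between HEART and MG the AGL80 copies BnaN19g29100 and BnaN09g23370 were higher (17.4%), and BnaN19g46030 of AGL62 and BnaN12g45670 of PHE1 were lower (22.4%), each being listed at 0 for MG. Under quantile normalization, or with a mean of at least 1 FPKM, 0 were lower in this step, and with that mean 0 were higher too. Between MG and DS 0 were higher (19%) and the 3 copies above 1 FPKM at MG were lower (21.3%), of which a mean of at least 1 FPKM left 1. Against OV, BnaN04g23250, BnaN19g46030 and BnaN12g45670 were higher at HEART (16.8%) and 0 lower (9.32%), and either of those settings left 1 of the 3. At MG, BnaN04g23250 and the AGL80 pair were higher than at OV (21.1%) and 0 lower (20.9%). A mean of at least 1 FPKM left 1 of these 3. Between OV and DS, 0 of the 5 were counted in either direction (23.1% higher and 25.5% lower among all genes considered).

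A and C copies of a locus were matched by the neighbours they share, which gave 15 pairs, 5 of them with 1 Darmor identifier for both copies. The values of matched copies are not replicates. Of the 10 pairs with both copies above 0, 6 had their highest value in the same stage. The share for matched pairs over all genes was not computed, and 18 of the 29 copies with a value were highest at GLOB. The count is therefore no measure of likeness between the subgenomes. Among the 6, the AGL40 pair has 1 Darmor identifier for both copies. The AGL80 pair BnaN09g23370 and BnaN19g29100 had 2.97 and 3.71 FPKM at MG, but shares 1 Darmor identifier. Reads that fit both of its copies, if there are any, may have been divided between them, which was not tested. The copies BnaN07g15250 and BnaN14g19200 of AGL62 had 0.316 and 0.362 at GLOB. The PHE1 pair BnaN02g38550 and BnaN12g45670 was highest at HEART on both subgenomes.

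Other pairs differed. BnaN04g23250 on A and BnaN14g54470 on C, matched by AT2G35650, AT2G35660 and AT2G41470, were alike at OV, with 0.697 and 0.780 FPKM. They were apart at HEART (2.70 and 0.423) and at MG (5.30 and 0). In the AGL62 neighbourhood, the A copy BnaN10g14730 had 0.873 at GLOB and 0 at HEART, and its C match BnaN19g46030 had 0.556 and 1.15. Summed over the members, the C share of the placed FPKM was 53.1% at OV, 36.1% at GLOB, 43.3% at HEART and 31.2% at MG (0.549% at MG by the letter of the Darmor identifier), against 48.0% to 50.1% for all genes in these stages, and each share rests on few copies.

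The rest of the type I family was followed through a list of 48 further Arabidopsis loci, 28 of which are represented in the table by 109 copies. Of these copies, 20 (18.3%) reached 1 FPKM in some stage, against 51.4% of all genes. As with the 46 copies above, more were above 0 at GLOB (43) and HEART (43) than at OV (24), MG (16) and DS (16). The shares were 22.0% at OV (62.4% of all genes), 39.4% at GLOB (61.7%) and 39.4% at HEART (63.9%). At MG and DS they were 14.7% each (57.5% and 55% of all genes). Summed over the list, the FPKM was 18.7 at OV, 76.9 at GLOB, 95.7 at HEART, 41.4 at MG and 40.8 at DS. Of the 20 copies, 10 were higher (15.8% of all genes considered) and 4 lower (11%) between OV and GLOB, with a median log2 difference of 0.91 (0.00 over all genes considered). Between GLOB and HEART 3 were higher (4.89%) and 3 lower (2.5%), with a median of 0.09, against 0.01. Between HEART and MG 0 were higher (17.4%) and 8 lower (22.4%), with a median of -0.68, against -0.09. Between MG and DS 5 were higher (19%) and 2 lower (21.3%), with a median of 0.00, against -0.01. These copies too were considered because of the stage in which they are high.

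Of these loci, 5 reached a summed 5 FPKM in a stage. AGL35 (Mγ), whose Arabidopsis gene lies close to AGL36, had values in the same pair of stages as PHE1. Its 4 copies all passed 1 FPKM and summed to 7.03 at GLOB and 5.63 at HEART, with 0 at OV, MG and DS. AGL91 (Mα) had 1.02 FPKM at OV, 4.19 at GLOB, 23.7 at HEART, 0.0972 at MG and 0.364 at DS. AGL96 (Mγ) had the highest sums, with 6.91 at OV, 58.1 at GLOB, 53.9 at HEART, 37.5 at MG and 0.581 at DS. AGL84 and AGL29, both Mα, were highest in the dry seed, with 26.7 and 8.90 FPKM at DS, against 0.487 and 0.554 at MG.

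**Figure D4:**
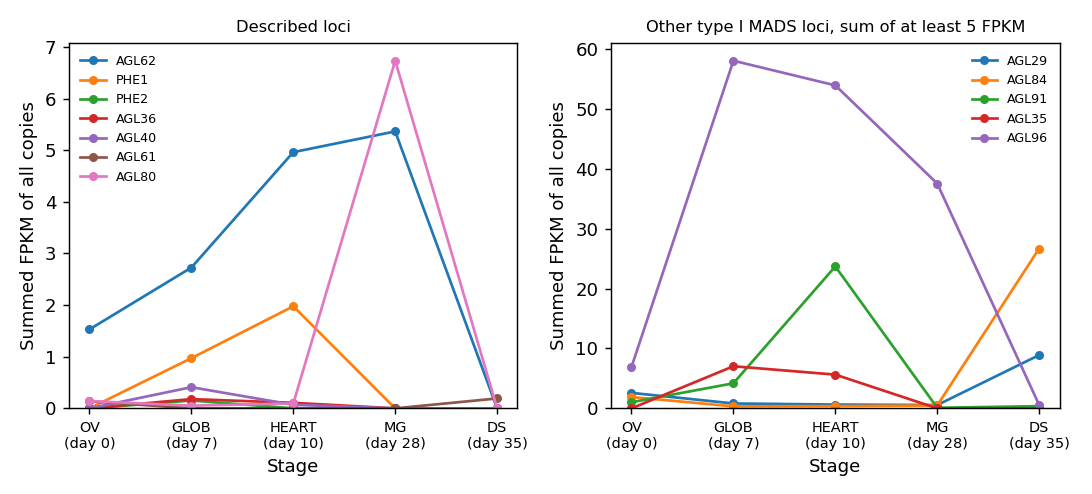
FPKM summed over all copies of a locus (y axis) by stage (x axis), for the 7 described loci with a gene in the table (left) and for the 5 other type I MADS loci with a sum of at least 5 FPKM in a stage (right; the y axes differ). On the left, AGL80 and AGL62 reach 6.73 and 5.36 at MG, and PHE1 1.98 at HEART; on the right, AGL96 reaches 58.1 at GLOB, AGL91 23.7 at HEART and AGL84 26.7 at DS.

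Genes of the pathway around these factors were taken from a list of 24 loci with roles in the central cell and endosperm, 22 of which are represented in the table. They had 134 copies, and 44 reached 1 FPKM in some stage (51.4% of all genes reached it). Between OV and GLOB 3 were higher and 4 lower, with a median log2 difference of 0.00. Over all genes considered, 15.8% were higher and 11% lower in that step. Between GLOB and HEART 23 of the 44 were higher (4.89% of all genes considered) and 1 lower (2.5%), with a median of 1.06, against 0.01. Between HEART and MG 3 were higher (17.4%) and 18 lower (22.4%), with a median of -0.64, against -0.09. Between MG and DS 7 were higher (19%) and 3 lower (21.3%), with a median of 0.00. The 44 copies were likewise considered because of the stage in which they are high, so these counts only describe them. Several are copies of 1 locus, with 11 of the 44 paired with ICE1. DD46, which depends on AGL80 in the Arabidopsis central cell, had 0.0180 FPKM at OV, 0.246 at GLOB and 5.55 at HEART, and was listed at 0 for MG and DS. At HEART, where DD46 was highest, AGL80 summed to 0.0945 FPKM. DME, the DNA glycosylase of the central cell, had 9.85 at OV, 1.08 at GLOB and 10.3 at HEART.

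FIS2, a Polycomb subunit of the central cell and endosperm that restrains PHE1 and AGL62 in Arabidopsis, had 0 at OV, 0.102 FPKM at GLOB, 2.77 at HEART and 0 at MG and DS. MEA, its Polycomb partner, reached at most 0.497 FPKM, at OV. FIE and MSI1, subunits shared with other Polycomb complexes, were higher. FIE had 15.2 FPKM at OV, 23.8 at HEART and 1.64 at DS, and MSI1 had 81.1 at OV, 64.1 at HEART and 133.5 at DS. MSI1 was one of 3 loci highest at DS. The others were ICE1, a partner of ZOU, with 93.8 FPKM at OV, 107 at HEART and 268.9 at DS, and IKU1, with 7.52, 4.65 and 13.9 at the same stages. Through these abundant genes the sum of the list, as deposited, was highest at DS. It was 210 FPKM at OV, 159 at GLOB, 249 at HEART, 265 at MG and 420.1 at DS. All genes together had 446090 FPKM at OV and 912604 at DS. The list was not rescaled to a common sum, so its ranks of stages are given for the deposited scale only. ZOU (ZHOUPI), a regulator of endosperm breakdown, had 0 at OV, 0.0342 at GLOB, 6.68 at HEART and 0.485 at MG. CKX2, a cytokinin oxidase of the endosperm, had 0.583 at GLOB and 13.5 at HEART. MINI3, a WRKY factor of early endosperm growth, was one of 3 loci on the list that were highest at GLOB, at 3.27 FPKM against 1.02 at HEART. Of the 22 loci, 12 were highest at HEART by the sum of their copies. Of single genes above 0 in some stage, 17.7% were highest at HEART, 16.9% at GLOB and 25.7% at DS.

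The patterns most like those of AGL62 and AGL80 were sought among 14612 Arabidopsis loci with a summed value of at least 5 FPKM in a stage. The measure was the total variation distance between the shares of the 5 stages, which is 0 for identical shares. AGL62 had 10.5% of its summed FPKM at OV, 18.7% at GLOB, 34.0% at HEART, 36.8% at MG and 0% at DS. The 5 nearest loci were AT3G24503 (distance 0.0508), AT5G24580 (0.0526), AT2G12400 (0.0550), AT5G06390 (0.0582) and AT5G48230 (0.0611). AT3G24503 had 22.7, 51.8, 74.7, 92.4 and 5.48 FPKM over the stages in order of age. AGL80 had 95.9% of its FPKM at MG. The 5 nearest loci to it were AT3G11180 (0.0106), AT3G52820 (0.0115), AT5G07530 (0.0116), AT2G03200 (0.0120) and AT2G24400 (0.0141). AT3G11180 had 31.7 FPKM at MG and at most 0.579 elsewhere. The AGL62 profile is that of copies with unlike courses, so likeness to it does not stand for any 1 copy.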

How the data were processed

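Ovules and whole seeds of 5 stages gave 14 RNA libraries. Per the labels, reads of 100 bases were trimmed with Trimmomatic (version 0.36), aligned to the DH12075 genome with HiSat2 and quantified with Cuffquant and Cuffdiff. The submitters' processing notes also name TopHat2 and Cuffnorm, and the steps in which these were used are not given in the sources used here. The authors deposited FPKM values, 1 per gene and stage. How libraries were combined, how multi-mapped reads were shared and the depth are not given in the sources used here, so no test, interval or count model was run, and the planned limma fit was replaced by the fixed fold rule. Another 2 columns of the table match no sample described here and were not used.

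Gene lengths are not in the table, so reads could not be recovered.

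Differences are on the log2(FPKM + 1) scale, which understates changes of low genes, over genes with at least 1 FPKM in some stage. Subgenomes come from the chromosome number in the identifier. The named genes follow a rule: all members, each copy reaching 1 FPKM, the 5 nearest patterns, and a choice among listed loci with a sum of at least 5 FPKM. Lower copies and lower loci (MEA, FIS2, MINI3, AGL45 and the egg apparatus markers) are named beyond it, after their values were seen, and the neighbour analysis and pairs were added after the values were seen. Members and lists were chosen with earlier results of these data known. The lists and symbols come from general knowledge of Arabidopsis. No sequence is printed. Python 3.11.15, pandas 2.3.3 and numpy 2.4.6 were used, and the fold counts were tested on simulated data, with genes of higher levels than those described.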

Additional observations from a re-analysis of the deposited data

How the results depend on the processing

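No paired analysis was possible because each stage has a single column, with its libraries already combined. Leaving out replicates gave no value for the same reason. Values and counts are called moved when they changed by more than 1.5 times, and subgenome shares when they changed by more than 5 percentage points. Of the 269 recomputed values, 220 stayed and 49 moved.

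On a common sum of all stages, which shifts the median log2 difference of all genes by -0.88 from HEART to MG and -0.32 from OV to GLOB, the summed FPKM became 2.81 in OV and 2.91 in MG for AGL62, 0.253 in OV for AGL61, and 0.260 in OV and 3.66 in MG for AGL80. AGL62 was then higher in HEART than in MG. Under quantile normalization AGL36 in HEART became 0.0419, AGL40 in HEART 0.0248, AGL80 in HEART 0.0365 and AGL61 in DS 0.373. Copies at a limit of 0.5 FPKM numbered 2 in OV and 3 in GLOB. At 5 FPKM there were 0 in HEART and 1 in MG, and at 1 FPKM on a common sum 2 in OV and 1 in GLOB. With more than 0.05 FPKM required, OV had 4 copies in place of 8, and GLOB (19) stayed the stage with the most.

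For the 46 copies, a pseudocount of 0.1 gave 2 higher and 2 lower from OV to GLOB, 2 higher from GLOB to HEART and 2 lower from OV to DS. A common sum gave 1 higher and 2 lower from OV to GLOB, 2 higher and 1 lower from GLOB to HEART, 1 lower from OV to MG and 2 lower from OV to DS. A mean of at least 1 FPKM, which fewer copies pass, left 0 higher and 0 lower from HEART to MG, 1 lower from MG to DS, and 1 higher from OV to HEART and from OV to MG. Quantile normalization left 0 lower from HEART to MG and 1 higher from OV to HEART. HEART held the highest value of 8 copies on a common sum and of 2 under quantile normalization, and MG of 2 on a common sum. For the other type I copies a pseudocount of 0.1 gave 13 lower from HEART to MG, 6 lower from MG to DS, 13 higher and 5 lower from OV to HEART, 9 lower from OV to MG and 7 higher from OV to DS. A common sum gave 5 higher from GLOB to HEART, 4 lower from OV to HEART, and 0 higher and 7 lower from OV to MG. With the Darmor letter of each copy, in place of that of its chromosome, the C share of the members was 29.3% in GLOB, 0.549% in MG and 100% in DS. Except where the construction shows it, the cause was not tested. The AGL62 neighbourhood kept its sums within 1.5 times with 10 genes on either side (15 copies) and within 20 loci (14 copies).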
